A study of Rattus norvegicus with 18 samples.

Results

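The genes of the proteasome were followed in RNA of the rat tibialis anterior, a fast-twitch muscle of the lower hindlimb. A gene was included when its symbol began with Psm, a letter from a to g and a number, with Psmb8 and Psmb9 left out. This gave 45 of the 30560 entries of the count table, of which 23398 carried a symbol. Of the 45, 43 passed the filter on low counts. The other 2 were Psma8, a core subunit known from the testis, with 3 counts in 1 library and 0 in the rest, and Psme1-ps1, a pseudogene with 14 counts over all libraries. The name rule also took in Psmc3ip and Psme3ip1, which are partners of proteasome genes by name and not subunits. Psma3, Psmb11, Psmd9 and Psmd10 were not analysed here, so the counts and summed levels of their parts below leave them out. Psma3 belongs to the alpha ring, Psmb11 to the beta ring, and Psmd9 and Psmd10 to the assembly factors.

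The 18 libraries came from 5 groups. WT rats aged 9 months gave 3 libraries. DMD rats of that age, a model of Duchenne muscular dystrophy, gave another 3, and DMD rats that the labels call p16-null gave 6. WT rats of 3 months and of 18 months gave 3 libraries each. The DMD and p16-null DMD groups both carry the dystrophin defect. The labels give neither the strain, the sex nor the form of the edits, and only the titles tell the libraries within a group apart, so separate animals are not stated. The p-values therefore measure the spread between these libraries, which may be technical.

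The proteasome is the protease that breaks down proteins tagged with ubiquitin, and in muscle it carries much of the protein loss of wasting. Its core particle is a barrel of alpha rings around beta rings. The peptide bonds are cut inside the barrel by Psmb5, Psmb6 and Psmb7. Interferon-induced subunits, Psmb8, Psmb9 and Psmb10, can take the places of Psmb5, Psmb6 and Psmb7 and form the immunoproteasome. A cap made of ATPases (Psmc genes) and of base and lid proteins (Psmd genes) binds, unfolds and feeds in the substrates. Other activators dock on the same ends of the barrel: Psme1 and Psme2 form the interferon-induced PA28 ring, Psme3 forms the nuclear PA28 gamma ring, and Psme4 is the single-chain PA200. Psmf1, known as PI31, was first described as an inhibitor.

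Promoter sequences are shown for the catalytic subunits Psmb5, Psmb6 and Psmb7, for Psmb10 and Psme3, the members called higher in DMD muscle, and for Psmc5, which lay furthest below WT there. Each runs over the 120 bases before the RefSeq start (build GRCr8), 5′ to 3′ on the gene's strand. Capitals mark matches to TGACNNNGC, the core of the antioxidant response element read by Nfe2l1, the transcription factor that controls proteasome genes, and to CCAAT, both searched on both strands.
Psmb5 (chr15:32047380-32047499, minus strand): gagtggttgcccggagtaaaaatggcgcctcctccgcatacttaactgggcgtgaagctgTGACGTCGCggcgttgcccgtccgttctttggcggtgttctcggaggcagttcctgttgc
Psmb6 (chr10:55737768-55737887, plus strand): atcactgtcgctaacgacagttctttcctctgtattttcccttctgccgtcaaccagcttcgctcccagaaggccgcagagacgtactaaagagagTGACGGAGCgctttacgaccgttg
Psmb7 (chr3:42827471-42827590, minus strand): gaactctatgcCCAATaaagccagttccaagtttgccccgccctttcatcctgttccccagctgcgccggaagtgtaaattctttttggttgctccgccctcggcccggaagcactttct
Psmb10 (chr19:50743293-50743412, minus strand): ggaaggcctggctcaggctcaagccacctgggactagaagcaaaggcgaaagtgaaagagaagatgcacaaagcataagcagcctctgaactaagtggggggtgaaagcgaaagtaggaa
Psme3 (chr10:86757813-86757932, plus strand): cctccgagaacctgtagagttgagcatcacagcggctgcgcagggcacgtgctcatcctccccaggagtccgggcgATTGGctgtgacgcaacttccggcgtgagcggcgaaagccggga
Psmc5 (chr10:91687433-91687552, plus strand): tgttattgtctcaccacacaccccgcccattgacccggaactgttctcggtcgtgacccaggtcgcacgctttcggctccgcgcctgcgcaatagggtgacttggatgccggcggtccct

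In these windows Psmb5 and Psmb6 each held a TGACNNNGC match, Psmb7 held CCAAT and Psme3 held its reverse complement, while Psmb10 and Psmc5 held neither. RefSeq promoters, 250 bases before to 50 after the start, were found by symbol for 40 of the 45 genes. TGACNNNGC was present in 6 of these 40 (15%) and in 12.2% of all 27457 promoters of the table. The 6 were Psmb2, Psmb5, Psmb6, Psmd1, Psmd3 and Psme4. CCAAT was present in 18 of 40 (45%) against 37.7% of all promoters. Both shares were close to those of all promoters, and a match describes the letters only. Psma7, Psmd6, Psmd12, Psmd14 and Psme1-ps1 had no entry.

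Library totals ran from 9607820 to 21992600 estimated counts. Levels below are CPM (counts scaled to a common library size) after scaling by TMM, the edgeR method that sets libraries to a common level for most genes, or the deposited TPM (a scale of transcripts that allows for gene length) where genes are compared with each other. Dmd, which encodes dystrophin, stood at 114 to 167 CPM in WT at 9 months, at 31.4 to 44.3 in DMD and at 30.9 to 54.1 in p16-null DMD. Cdkn2a, which encodes p16, stood at 10.7 to 19.4 CPM in DMD and at 10.1 to 15.3 in p16-null DMD. Counts per gene pool the transcripts of Cdkn2a, and how p16 was removed is not in the labels, so this level does not check the p16-null label. Summed macrophage markers (11 genes) were at 418 to 460 CPM in WT at 9 months and 2431 to 3804 in DMD, and summed fast-fibre markers (7 of 9 genes present in the table) at 133040 to 149949 and 37069 to 57541. In WT they were at 381 to 592 and 128367 to 153649 at 3 months, and at 687 to 1002 and 76631 to 89372 at 18 months. In p16-null DMD they were at 1604 to 4808 and 30435 to 65582. Summed markers of regenerating fibres (5 genes) stood at 40.2 to 45.1, 59.2 to 73.5 and 363 to 378 CPM in WT at 3, 9 and 18 months, at 451 to 926 in DMD and at 415 to 1046 in p16-null DMD. Summed fibroblast markers (7 genes) stood at 1965 to 2103 CPM in WT at 9 months and 4892 to 9272 in DMD, and at 3337 to 6417 and 1862 to 2097 in WT at 3 and 18 months. In p16-null DMD they stood at 5132 to 14031. Summed markers of T, B and plasma cells (7 genes) stood at 1.36 to 3.64, 1.04 to 2.16 and 4.47 to 5.07 CPM in WT at 3, 9 and 18 months, at 17.3 to 27.7 in DMD and at 6.98 to 18.9 in p16-null DMD. Of these, Cd79b and Ms4a1 were at 0 in WT at 9 months and Ms4a1 in WT at 18 months. Summed endothelial markers (5 genes) stood at 636 to 780, 467 to 553 and 601 to 687 CPM in WT at 3, 9 and 18 months. They stood at 373 to 511 in DMD and at 443 to 555 in p16-null DMD. Several of these marker sums differ between the groups compared below and others overlap, and their part in the results was not tested. In tissue RNA, fewer cells of a type and less RNA per cell cannot be told apart.

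Per length, subunits of the barrel's core led the order of levels, though not all of them stood high. Averaged over all 18 libraries, Psma7 (271 TPM), Psma6 (237) and Psmb6 (226) stood highest. The subunits of the beta ring Psmb4, Psmb7, Psmb1 and Psmb5 followed at 223 to 207 TPM. Psme1 was the highest of the activators at 145 TPM, above Psme3 at 81.9, Psme2 at 56.8 and Psme4 at 46.9. Among the tested core subunits, Psma1 (45.5 TPM), Psmb10 (43.7) and Psma2 (28.5) ranked 33, 34 and 36 of 45. The chaperones that build the barrel, Psmg1 to Psmg4, stood at 38.1 to 17.4 TPM. The beta ring made up 32.6% ± 1.26 (SD, n = 3) of the summed TPM of the 45 genes in WT muscle at 9 months, the base and lid non-ATPases 21.9% ± 1.05, the alpha ring 19.6% ± 0.15, the base ATPases 15.7% ± 0.62, the activators and Psmf1 6.70% ± 0.42, and the assembly factors 2.91% ± 0.16. In DMD muscle the activators made up 7.88, 11.2 and 11.2%, all above the 6.24 to 7.07% of WT. The beta ring made up 30.9 to 31.5%, below the 31.8 to 34.1% of WT. The ranges of the other 4 roles overlapped. In p16-null DMD muscle the beta ring made up 31.3 to 33.3%, overlapping with WT at 9 months, and the activators 8.57 to 10.3%, above it. Psmb6 received shared, fractional reads in all 18 libraries, so its level is uncertain.

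DMD and WT muscle of 9 months were compared to find what differs in the dystrophic muscle. On the TMM scale, 25 of the 43 genes were lower in DMD muscle, 2 were higher and 16 did not pass (edgeR quasi-likelihood test, Benjamini-Hochberg adjusted p under 0.05 over all 14801 genes). Over all genes, 48.3% passed, with 21.8% lower and 26.4% higher. Leaving out 1 library gave 19 to 26 lower and 0 to 3 higher: 0 without WT replicate 2, WT replicate 3 or DMD replicate 3, 1 without WT replicate 1 or DMD replicate 1, and 3 without DMD replicate 2. The median log2 fold change of the 43 was -0.46, against 0.11 over all genes. The absolute direction depended on how libraries were scaled: by library totals 1 gene was lower and 7 were higher, against 8.38% and 52% of all genes (60.3% in all), and on deposited TPM with limma 0 were lower and 16 higher, against 7.05% and 54.4% (61.5% in all). Those scalings moved the median of all genes to 0.76 and 0.64, and the medians of the 43 to 0.17 and 0.29. Relative to other genes, 40 of 43 lay below the median gene with TMM, RLE, DESeq2 and library totals, and 39 of 43 on TPM with a pseudocount of 1. The settings on counts differ mainly in a factor per library, which shifts all genes nearly alike. That count could therefore hardly change between them and is no separate support. Calls of "lower" in DMD and p16-null DMD muscle below are on the TMM scale and are read in this sense, as a fall against most other genes.

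**Figure D1:**
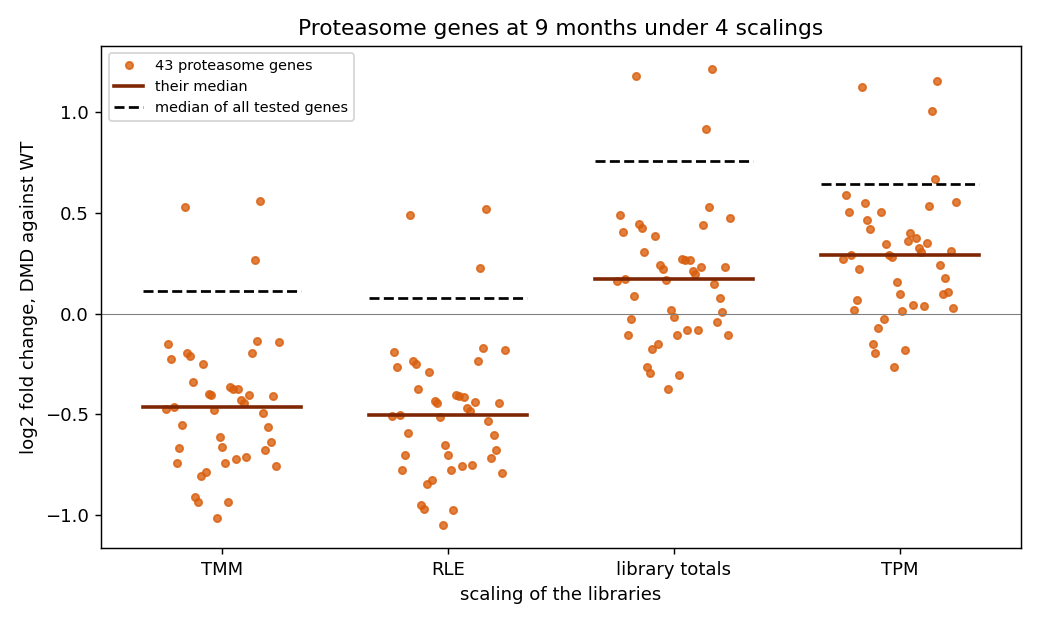
Log2 fold changes of the 43 tested proteasome genes between DMD and WT muscle at 9 months (vertical axis) under 4 scalings of the libraries (horizontal axis), with 1 point per gene in alphabetical order from left to right. The solid line is their median and the dashed line the median of all 14801 tested genes: the solid line lay under the dashed one in each scaling, at -0.46 against 0.11 with TMM and at 0.17 against 0.76 with library totals. TMM, RLE and library totals shift all genes nearly alike, so the gap between the lines could hardly change between them.

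The groups did not overlap in CPM for 29 genes that were lower and 1 that was higher, against 25.7% and 30.7% of all genes. Summed CPM of the 45 genes was 4443 ± 70.6 (SD, n = 3) in WT and 3136 ± 250 (n = 3) in DMD muscle. As a percentage of raw counts, the 45 genes took 0.341 ± 0.0182 and 0.376 ± 0.0149, so the unscaled share was not lower in DMD muscle. Summed TPM was 3789 ± 287 and 4426 ± 236.

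Within the barrel, the alpha ring, which gates the entry, had 4 of 6 tested members lower (median -0.47), against 21.8% of all genes. Psma6 stood at 179, 179 and 201 CPM in WT and at 110, 125 and 97.6 in DMD libraries. The groups did not overlap, and Psma6 fell by 0.74 ± 0.16 (log2, SE; adjusted p = 0.0015). Psma7 read 185, 145 and 153 CPM in WT against 77.5, 130 and 96.3, a fall of 0.67 ± 0.18 (log2 fold change -0.67, adjusted p = 0.0065). Psma2 and Psma4 did not pass, at -0.15 ± 0.15 and -0.23 ± 0.17.

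The beta ring split by subunit. The 3 constitutive catalytic subunits were among its 4 lower members of 8, and Psmb10 was higher, against 21.8% and 26.4% of all genes. Psmb5, which carries the chymotrypsin-like site, read 163, 120 and 115 CPM in WT and 57.2, 79.8 and 73.3 in DMD muscle. Psmb6, with the caspase-like site, read 141, 138 and 134 against 63.1, 87.0 and 65.7. Psmb7, with the trypsin-like site, read 189, 203 and 199 against 97.6, 139 and 99.3. All 3 were lower in every DMD library than in any WT library. Their log2 fold changes were -0.91 ± 0.17 (adjusted p = 0.00038), -0.94 ± 0.15 (0.00012) and -0.81 ± 0.15 (0.00050). Scaled by library totals they were -0.26, -0.30 and -0.18 and did not pass. The structural subunit Psmb1 was also lower at -0.55 ± 0.14, while Psmb2, Psmb3 and Psmb4 did not pass, at -0.20 to -0.34.

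Psmb10, the immune form of the trypsin-like subunit, read 21.0, 18.5 and 16.5 CPM in WT and 25.03, 24.5 and 31.0 in DMD muscle. WT libraries of 3 months, at 19.6 to 28.4 CPM, overlapped with DMD, and those of 18 months, at 18.6 to 21.95, lay below it. The DMD libraries all stood above the WT libraries of 9 months, and Psmb10 rose by 0.53 ± 0.18 (log2, adjusted p = 0.022). It was higher under each scaling, by 1.18 with library totals and 1.13 on TPM. Its TMM call depended on single libraries: without DMD replicate 3 the adjusted p was 0.098, without WT replicate 3 it was 0.087, and without WT replicate 2 it was 0.056. A ratio within a library does not depend on its scaling. Psmb10 made up 9.82 to 12.7% of the summed TPM of Psmb7 and Psmb10 in the WT libraries of 9 months, and 17.8, 23.9 and 26.5% in the DMD libraries in ascending order. Means were 11.1% ± 1.47 (SD, n = 3) and 22.7% ± 4.48 (n = 3).

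The other immune subunits, which the name rule leaves out, moved with it. Psmb8 rose by 1.46 ± 0.33 (adjusted p = 0.0021) and Psmb9 by 1.23 ± 0.29 (adjusted p = 0.0026). Psmb8 went from 4.23% ± 0.31 to 19.4% ± 6.09 of the pair it forms with Psmb5, and Psmb9 from 5.35% ± 1.17 to 21.9% ± 5.76 of its pair with Psmb6. The constitutive subunit thus remained the more abundant message of each pair in every library. These 2 pairs were added after the data were seen. Markers of macrophages (11 of 11), of T, B and plasma cells (3 of the 4 tested), of fibroblasts (7 of 7) and of regenerating fibres (4 of 5) were also called higher in DMD muscle. Fast-fibre markers (7 of 7) and endothelial markers (2 of 5) were called lower. Of all genes, 26.4% were higher and 21.8% lower. The part of these cells in the shares was not tested.

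**Figure D2:**
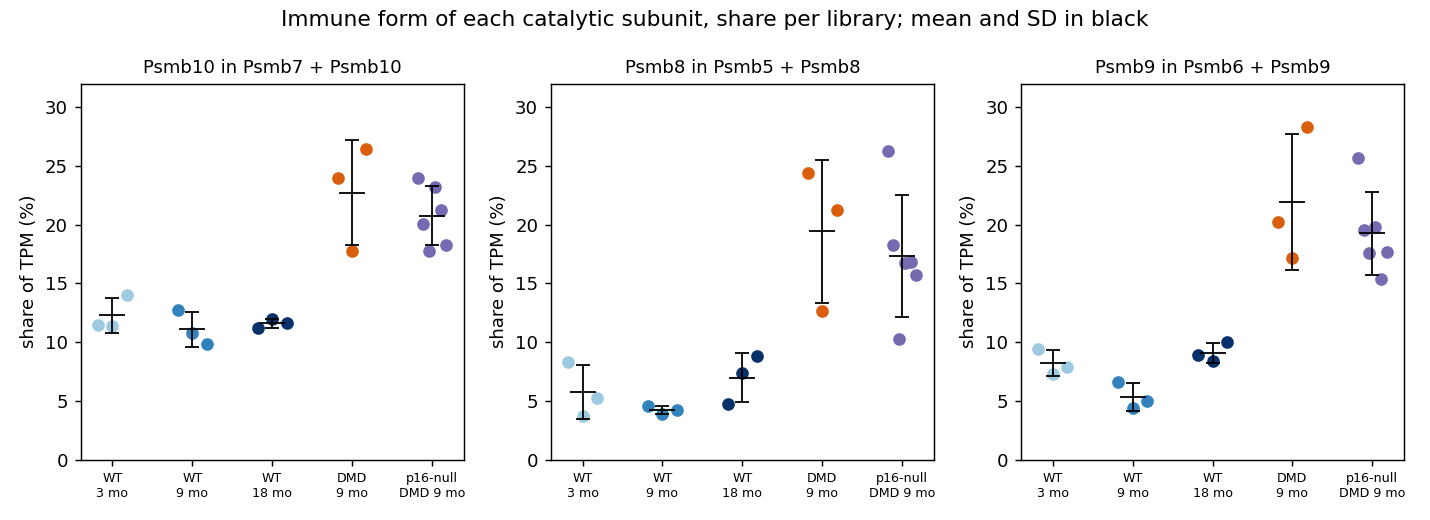
Share of the immune subunit in the summed TPM of each pair that takes the same place in the core (vertical axis, percent), for each library (points) of the 5 groups (horizontal axis), with the group mean and SD in black. Every DMD and p16-null DMD library lay above every WT library in the 3 panels, with Psmb10 at 17.8% or more against at most 14.03%.

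In the cap, the ring of ATPases that unfolds substrates had 4 of 6 members lower (median -0.55), against 21.8% of all genes. Psmc5 had the largest fall of the 43 genes. It read 180, 155 and 177 CPM in WT and 80.8, 96.0 and 75.5 in DMD muscle, with no overlap and a log2 fold change of -1.02 ± 0.14 (adjusted p = 4.7e-05). It was the only gene also called lower by library totals, at -0.38 (adjusted p = 0.037), and stood at -0.27 on TPM (adjusted p = 0.10). Psmc2 and Psmc6 followed at -0.79 ± 0.13 and -0.62 ± 0.16. Psmc4 read 89.5, 85.5 and 66.6 CPM in WT and 50.5, 68.2 and 54.2 in DMD muscle, so that its groups overlapped, at -0.48 ± 0.16 (adjusted p = 0.021). This call ended without WT replicate 1 or 2, or DMD replicate 1 or 3 (adjusted p from 0.074 to 0.095). Psmc1 and Psmc3 did not pass.

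The base and lid proteins without ATPase activity, which hold ubiquitin receptors and the deubiquitinase Psmd14, had 8 of 11 members lower (median -0.43). Of all genes, 21.8% were lower. The lid scaffold Psmd12 read 115, 149 and 130 CPM in WT and 59.9, 81.4 and 62.9 in DMD muscle, a log2 fold change of -0.94 ± 0.15 (adjusted p = 0.00012). Psmd11, another lid scaffold, read 122, 138 and 151 against 73.4, 92.6 and 79.6, at -0.74 ± 0.14 (adjusted p = 0.00041). Neither gene's groups overlapped. The large base scaffolds Psmd2 and Psmd1 were lower by similar amounts, at -0.72 ± 0.14 and -0.66 ± 0.12. Psmd3, Psmd8 and Psmd14 did not pass, at -0.38, -0.20 and -0.37.

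**Figure D3:**
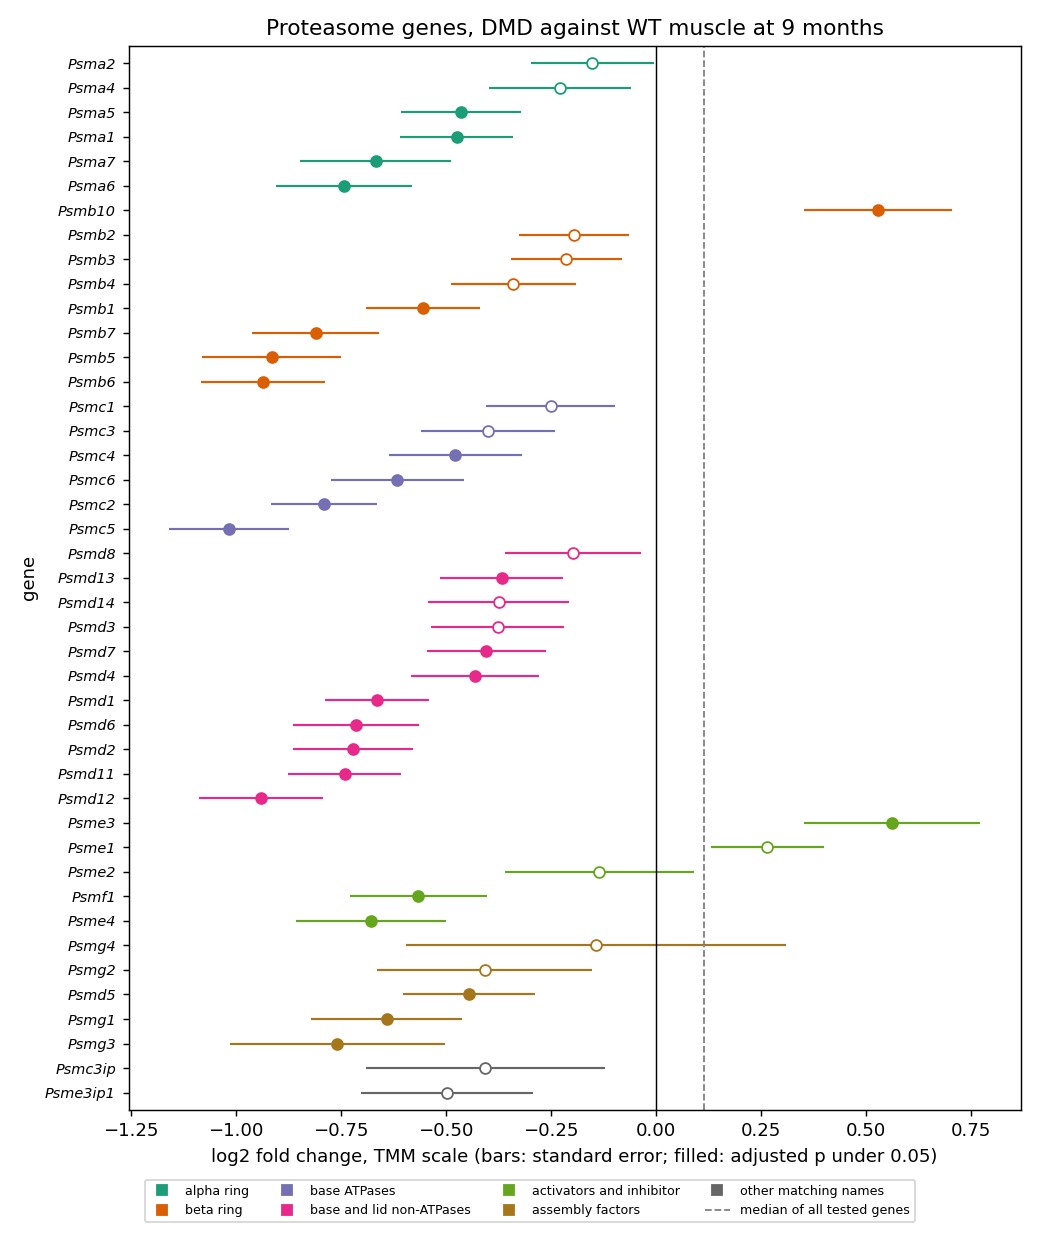
Log2 fold change of each tested gene between DMD and WT muscle at 9 months on the TMM scale (horizontal axis), with 1 gene per line grouped by role, bars for the standard error and filled points for an adjusted p under 0.05. Most filled points lay left of 0, from -1.02 for Psmc5, with Psmb10 at 0.53 and Psme3 at 0.56 on the right. By library totals or TPM, most points would move to the right of 0.

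The activators did not move as a block. Psme4 (PA200) read 239, 304 and 321 CPM in WT and 169, 189 and 179 in DMD muscle. Its groups did not overlap and its log2 fold change was -0.68 ± 0.18 (adjusted p = 0.0056). Psmf1 read 26.7, 26.3 and 22.5 against 13.9, 19.6 and 17.4 CPM, at -0.57 ± 0.16 (adjusted p = 0.0098). Psme3 (PA28 gamma) read 148, 153 and 135 CPM in WT and 259, 147 and 234 in DMD muscle. DMD replicate 2 lay among the WT libraries and the other 2 far above them. Psme3 rose by 0.56 ± 0.21 (adjusted p = 0.038), by 1.22 with library totals and by 1.16 on TPM. Leaving out any 1 of 5 libraries ended the TMM call. The adjusted p was then 0.17 without DMD replicate 1, 0.11 without DMD replicate 3, and 0.074, 0.063 and 0.11 without WT replicates 1, 2 and 3.

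The interferon-induced pair behaved otherwise. Psme1 read 78.5, 72.5 and 66.9 CPM in WT and 91.4, 74.5 and 94.97 in DMD muscle, and at 0.26 ± 0.13 it did not pass on the TMM scale (adjusted p = 0.12), whereas it was called higher by library totals and TPM at 0.92 and 1.01. Psme2 read 68.6, 36.1 and 39.6 against 39.1, 41.4 and 51.0, and 1 WT library stood above all others. It was at -0.13 ± 0.22 on the TMM scale (adjusted p = 0.65) and was called higher on TPM, at 0.67. Within a library, Psme3 took 20.2% ± 1.57 (SD, n = 3) of the summed TPM of Psme1 to Psme4 in WT and 25.4% ± 2.89 in DMD muscle, and Psme4 took 19.2% ± 4.38 and 11.4% ± 2.13. The ranges of these shares did not overlap, at 19.2 to 21.98 against 22.6 to 28.4% for Psme3 and 14.3 to 22.8 against 10.04 to 13.8% for Psme4. The share of Psme1 was apart as well, at 40.5 to 42.4% in WT and 45.3 to 47.0% in DMD muscle. That of Psme2 overlapped, at 15.1 to 25.6 and 14.5 to 18.3%. These shares too were added after the data were seen.

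Of 5 assembly factors, 3 were lower (median -0.44), against 21.8% of all genes. Psmg1, a chaperone of the alpha ring, read 39.3, 30.8 and 31.2 CPM in WT and 18.2, 23.6 and 23.0 in DMD muscle, at -0.64 ± 0.18 (adjusted p = 0.0086, and 0.050, just above the threshold, without WT replicate 1). Psmg3 was at -0.76 ± 0.26, and did not pass without WT replicate 1 or DMD replicate 1 or 3 (adjusted p = 0.13, 0.071 and 0.054). Psmd5, a chaperone of the base, read 27.9, 35.3 and 30.6 against 22.3, 22.4 and 23.9, at -0.44 ± 0.16 (adjusted p = 0.029), a call that was lost in 5 of the 12 fits that left out 1 library (WT replicate 2 or 3, or any DMD library, adjusted p from 0.056 to 0.12) and with no filter on low counts (0.061). Psmg2 and Psmg4, the least abundant pair, did not pass. Psmc3ip and Psme3ip1 did not pass either.

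Genes that work with the proteasome were described from 2 further lists. Of 19 partners and regulators, 13 were lower and none was higher on the TMM scale (edgeR quasi-likelihood test; median -0.51), against 21.8% and 26.4% of all genes. By library totals 3 were lower and 1 higher (8.38% and 52% of all genes), and on TPM 1 and 6 (7.05% and 54.4%). With TMM, library totals and TPM, 18 of 19 lay below the median gene, a count that a change from TMM to library totals could hardly alter. Ecpas, a scaffold that clamps core and cap together, read 492, 524 and 569 CPM in WT and 207, 235 and 178 in DMD muscle. Its log2 fold change of -1.35 ± 0.15 (adjusted p = 9.3e-06) passed in 24 of 24 settings, library totals and TPM included, where it ranged from -1.44 to -0.55. The redox protein Txnl1, which binds the cap, was at -1.20 ± 0.14 and Zfand5, which stimulates the complex in wasting muscle, at -0.96 ± 0.17. Pomp, the maturation factor of the barrel, was at -0.62 ± 0.15 (adjusted p = 0.0034) and at 0.02 by library totals. Nfe2l1 read 536, 465 and 569 CPM in WT and 438, 595 and 395 in DMD muscle, overlapping, at -0.13 (adjusted p = 0.68), while TPM called it higher at 0.60. Of 13 tested genes for ubiquitin, its activation and the unfoldase p97, 8 were lower and none higher on the TMM scale (median -0.57), against 21.8% and 26.4% of all genes. For these 13, library totals called 1 lower and 4 higher (8.38% and 52% of all genes), and TPM 0 and 4 (7.05% and 54.4%). The p97 gene Vcp was at -0.61 ± 0.13 and its cofactors Nploc4 and Faf1 at -0.99 ± 0.14 and -0.87 ± 0.18. The ubiquitin-conjugating enzyme Ube2r2 was at -0.66 ± 0.15.

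The p16-null DMD libraries were compared with WT by the same test. Both comparisons use the same 3 WT libraries, so their likeness is not independent. On the TMM scale 27 of 43 genes were lower and 2 higher, against 22.7% and 27.5% of all genes (50.2% in all). By library totals 2 were lower and 8 higher (8.45% and 54.5% of all genes, 63% in all), and on TPM 0 and 22 (6.64% and 59.6%, 66.2% in all). Without WT replicate 3, 1 was higher. The median was -0.40 against 0.11 for all genes, and 41 of 43 lay below the median gene. All 6 ATPases were lower on the TMM scale, as were 8 of 11 base and lid non-ATPases, 5 of 8 beta subunits, 4 of 6 alpha subunits, 2 of 5 assembly factors and 2 of 5 activators. Of the ATPases, Psmc1 did not pass in 8 of the 12 fits that left out 1 library (adjusted p from 0.050 to 0.13), Psmc3 in 4 (0.054 to 0.090) and Psmc4 without WT replicate 1 or 2 (0.082 and 0.061). On TPM, Psmc4 was called higher instead, at 0.32 (limma, adjusted p = 0.027).

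Psmc5, Psmb6 and Psmd12 lay furthest below WT in p16-null DMD muscle. Psmc5 ran from 72.3 to 94.1 CPM (median 87.0), against 155 to 180 in WT, at -0.99 ± 0.12 (adjusted p = 1.1e-05). Psmb6 ran from 65.6 to 84.2 (median 73.0) against 134 to 141, at -0.91 ± 0.12 (adjusted p = 2.7e-05). Psmd12 ran from 64.4 to 76.5 (median 71.1) against 115 to 149, at -0.88 ± 0.12 (adjusted p = 3.9e-05). None of these overlapped with WT.

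Psme3 ran from 177 to 272 CPM (median 223) in p16-null DMD, against 135 to 153 in WT, and rose by 0.67 ± 0.19 (adjusted p = 0.0076). This call passed in 24 of 24 settings, from 0.61 to 1.28. Psmb10 ran from 21.7 to 33.5 CPM (median 26.4) against 16.5 to 21.0 and rose by 0.52 ± 0.16 (adjusted p = 0.012), a call lost without WT replicate 3 (adjusted p = 0.068). Its share of the pair with Psmb7 was 20.8% ± 2.53 (SD, n = 6), from 17.8 to 23.9%. Psme3 took 28.2% ± 3.23 of the activators, from 24.0 to 33.4%, above the 21.98% of the highest WT library of 9 months. The shares of Psme1 (39.1 to 43.9%), Psme2 (12.8 to 18.8%) and Psme4 (10.5 to 16.1%) overlapped with those of WT at 9 months.

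**Figure D4:**
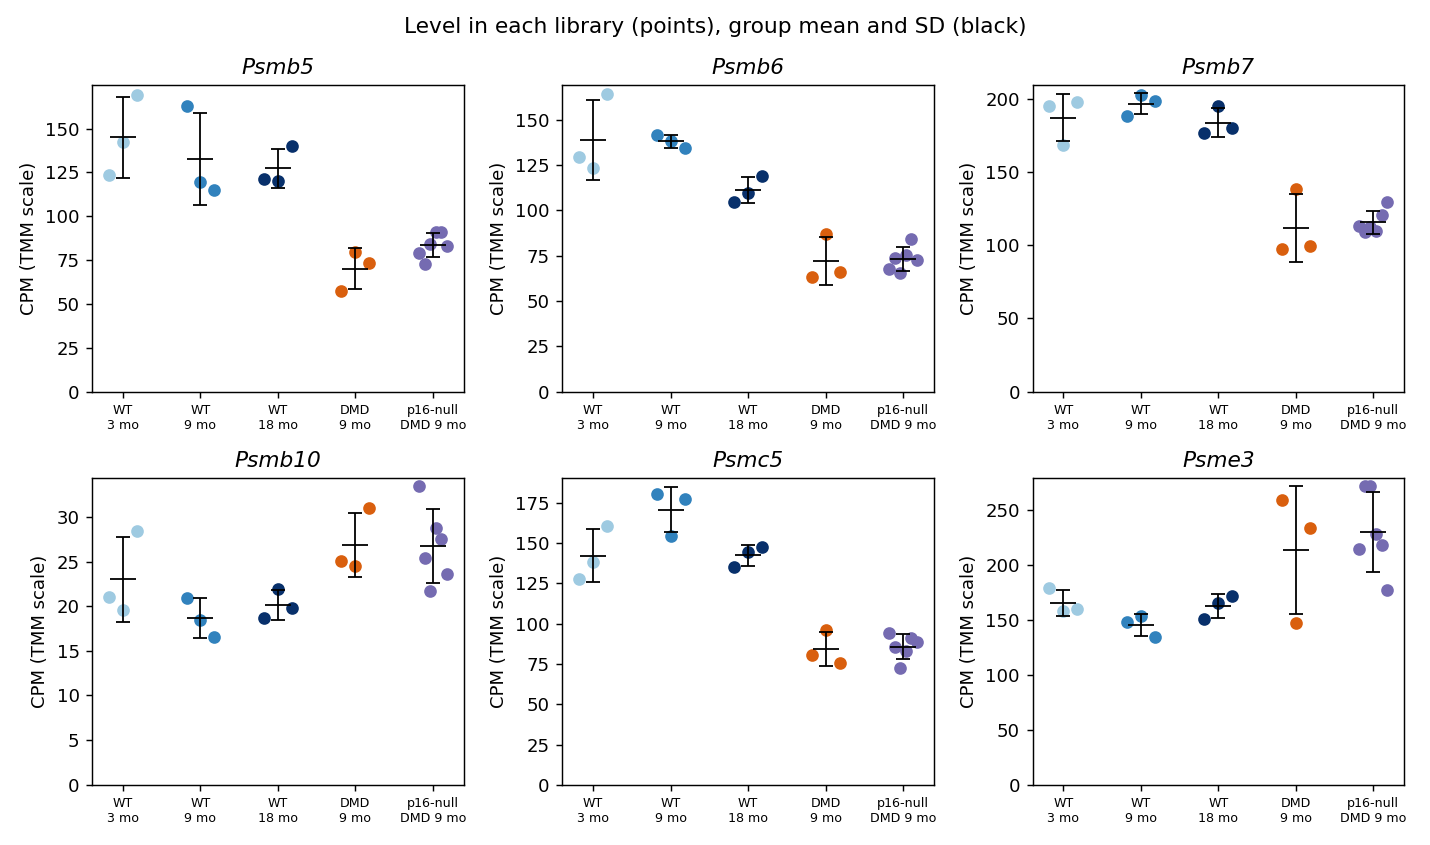
CPM on the TMM scale (vertical axes, from 0) of 6 proteasome genes in each library (points) of the 5 groups (horizontal axes), with the group mean and SD in black. Psmb5, Psmb6, Psmb7 and Psmc5 stood lower in all DMD and p16-null DMD libraries than in any WT library, while Psmb10 in all 9 and Psme3 in 8 of these 9 stood above the WT libraries of 9 months; on the scale of library totals the first 4 would differ less.

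The p16-null DMD libraries were then set against the DMD libraries, a question of what the loss of p16 changes. No proteasome gene passed (edgeR quasi-likelihood test, 0 of 43). None had an unadjusted p under 0.05, and DESeq2 also called 0. Over all genes 0.00676% were called, which is 1 of 14801. Log2 fold changes ran from -0.21 for Psme1 to 0.26 for Psmb5, with a median of 0.05 and a smallest adjusted p of 0.94. Standard errors were 0.11 to 0.39. The 95% intervals lay within -0.31 to 0.35 for the alpha ring, -0.42 to 0.56 for the beta ring, -0.37 to 0.44 for the ATPases, -0.46 to 0.36 for the base and lid non-ATPases and -0.47 to 0.50 for the activators, and were widest for the assembly factors, at -0.76 to 0.89. For Psmb10 the difference was -0.01 and for Psme3 0.11.

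The comparison of WT muscle at 18 and 3 months asked how the muscle differs with age. On the TMM scale the proteasome as a whole was hardly displaced: the median was 0.04 against 0.00 over all genes, and 17 of 43 genes lay below the median gene. Of the 43 genes, 4 were higher and 1 lower at 18 months, against 9.31% and 10.1% of all genes (19.4% in all). On this scale the counts were thus at or below the background. Leaving out WT 3 months replicate 1 or 2, or WT 18 months replicate 3, left 2 higher and 1 lower, and leaving out any of the other 3 libraries left 1 higher and 0 lower. By library totals 13 were higher and 0 lower (19.3% and 4.83% of all genes, 24.2% in all), and on TPM 21 and 0 (22.5% and 3.18%, 25.7% in all). On both, a larger share of the 43 than of all genes was called higher. Their median was 0.27 against 0.24 over all genes by library totals, with 18 of 43 below the median gene. On TPM it was 0.39 against 0.29 with a pseudocount of 1, with 14 of 43 below, and 0.40 against 0.35 with 0.1. Of the 4 genes higher on the TMM scale, 3 were base and lid proteins and 1 was a base chaperone.

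Psmd11 stood at 110, 112 and 102 CPM at 3 months and at 144, 161 and 176 at 18 months. The groups did not overlap, and it rose by 0.58 ± 0.12 (adjusted p = 0.0041). This call passed in 17 of 17 settings, at 0.51 to 0.92. At 9 months Psmd11 read 122, 138 and 151 CPM, above all libraries of 3 months and overlapping with those of 18 months, and neither difference passed (adjusted p = 0.24 and 0.31 in the edgeR fit of all 18 libraries).

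Psmd5 read 22.3, 30.2 and 18.8 CPM at 3 months and 39.3, 37.2 and 33.2 at 18 months, a rise of 0.63 ± 0.17 (adjusted p = 0.020). It was lost without WT 3 months replicate 1 or 3, or WT 18 months replicate 1 or 2 (adjusted p from 0.056 to 0.081). Psmd1 rose by 0.41 ± 0.12 (adjusted p = 0.027) and Psmd14 by 0.39 ± 0.12 (adjusted p = 0.034). The Psmd1 call was lost without any library but WT 3 months replicate 1, and the Psmd14 call without any of the 6. Adjusted p-values then ran from 0.063 to 0.083 and from 0.051 to 0.12.

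Psma7 was the lower gene. It read 164, 161 and 224 CPM at 3 months and 118, 128 and 135 at 18 months, with no overlap, at -0.52 ± 0.14 (adjusted p = 0.017). The call was lost without WT 3 months replicate 3, the highest library (adjusted p = 0.050), or without WT 18 months replicate 1 (0.084) or 2 (0.058), and it did not pass by library totals or TPM. Psma6 did not pass, at -0.28 ± 0.11.

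On the TMM scale no ATPase, beta subunit or activator passed at 18 months. Over the 17 settings, Psme1 was called in 3, and Psmc4 and Psmc5 in 2 each. With TMM the ATPases lay between 0.01 and 0.14 with none called, and Psmc4, the one with the smallest p, read 66.8, 80.1 and 81.5 CPM at 3 months and 73.2, 87.5 and 88.9 at 18 months. The 5 activators, Psmf1 included, lay between -0.02 and 0.14. Psme1 read 75.9, 77.7 and 82.0 CPM at 3 months and 84.4, 86.1 and 87.7 at 18 months, apart but close (0.14 ± 0.12, adjusted p = 0.45). Among the beta subunits Psmb6 read 129, 123 and 164 against 105, 109 and 119, at -0.31 ± 0.13 (adjusted p = 0.11). The share of Psmb10 in its pair with Psmb7 was 12.3% ± 1.498 at 3 months and 11.6% ± 0.38 at 18 months, with overlapping libraries. The base and lid non-ATPases took 20.1% ± 1.06 of the summed TPM of the 45 genes at 3 months and 23.5% ± 0.66 at 18 months, and the alpha ring 21.0% ± 0.59 and 18.1% ± 0.46. Neither pair of ranges overlapped. The beta ring took 33.8% ± 1.28 and 31.7% ± 0.39, and the ATPases 15.0% ± 0.46 and 15.9% ± 0.29, again with no overlap.

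**Figure D5:**
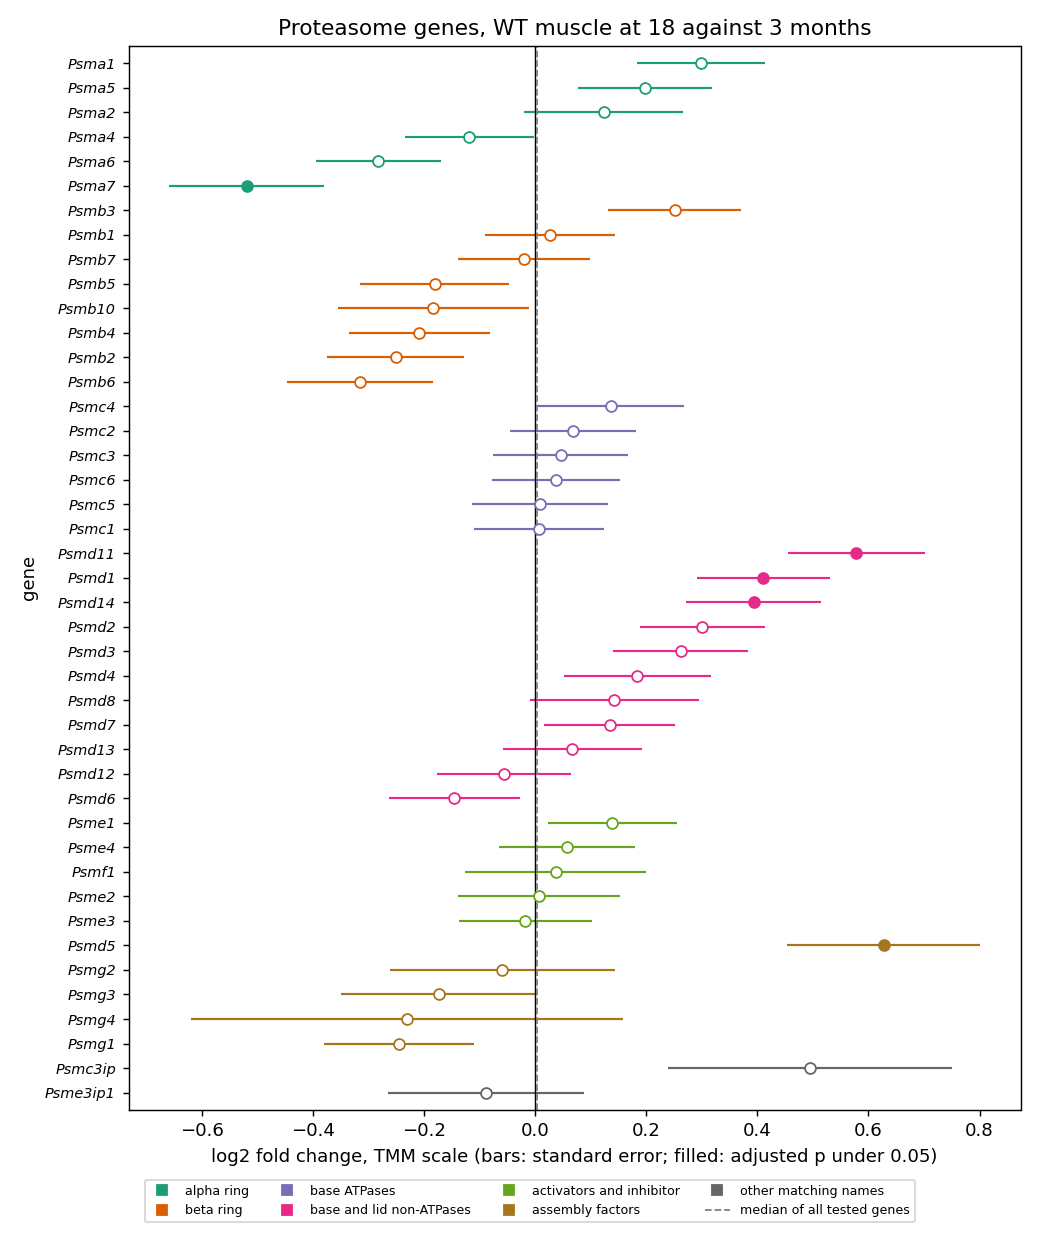
Log2 fold change of each tested gene between WT muscle of 18 and 3 months on the TMM scale (horizontal axis), with 1 gene per line grouped by role, bars for the standard error and filled points for an adjusted p under 0.05. Points lay on both sides of 0, with Psma7 at -0.52, and Psmd11, Psmd1, Psmd14 and Psmd5 at 0.39 to 0.63; library totals or TPM would move all points to the right.

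Nfe2l1 read 344, 327 and 345 CPM at 3 months, 536, 465 and 569 at 9 months and 842, 725 and 714 at 18 months, with no overlap between 3 and 18 months. It rose by 1.17 ± 0.12 (adjusted p = 1.5e-05) between 3 and 18 months and passed in 17 of 17 settings. Among the 19 partners and regulators, 4 were higher at 18 months (Nfe2l1, Zfand2a, Rad23b and Ubqln4) and none was lower on the TMM scale, against 9.31% and 10.1% of all genes. By library totals 6 were higher and 0 lower (19.3% and 4.83% of all genes), and on TPM 7 and 0 (22.5% and 3.18%). Of the 13 tested genes for ubiquitin and p97, Vcp was higher, at 0.62 ± 0.13 in 17 of 17 settings, and Ube2k lower on the TMM scale, at -0.50 ± 0.13, while by library totals 4 were higher and 0 lower and on TPM 5 and 0. Pomp did not pass, at -0.35 (adjusted p = 0.085, and from 0.060 to 0.93 over the settings).

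WT muscle at 9 months was set against the other ages in a fit of all 18 libraries, a contrast that the series' design does not name. Against 3 months, 0 of 43 genes passed, 3 had an unadjusted p under 0.05, and DESeq2 called 0 (0.627% of all genes were called, 0.307% higher and 0.32% lower, and 0.254% on TPM). Log2 fold changes ran from -0.30 for Psmb10 to 0.48 for Psmc3ip. For 18 against 9 months 0 passed, 4 had an unadjusted p under 0.05, and DESeq2 called 0 (7.98% of all genes were called, 3.84% higher and 4.14% lower). Values ran from -0.34 for Psma7 to 0.30 for Psmb3. By library totals 11 genes were higher at 18 than at 9 months and 0 lower (16.5% and 1.29% of all genes), and on TPM 9 and 0 (9.87% and 0.988%). Summed CPM of the 45 genes was 4317 ± 158, 4443 ± 70.6 and 4430 ± 176 at 3, 9 and 18 months (SD, n = 3 each), and the libraries of these ages overlapped. As a percentage of raw counts the 45 genes took 0.353 ± 0.0107, 0.341 ± 0.0182 and 0.428 ± 0.00552, and their summed TPM was 3659 ± 194, 3789 ± 287 and 4547 ± 63.6. On these unscaled measures every library of 18 months stood above every library of 3 and 9 months.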

How the data were processed

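RSEM expected counts per gene and TPM values were used as deposited by the authors. The submitters' processing notes name RSEM 1.3.3, STAR 2.7.10b, Trimmomatic, FastQC and the build mRatBN7.2. Neither annotation release nor strandedness was stated in them. Per the labels' protocols, RNA came from frozen muscle sections and libraries from a TruSeq kit. The estimated counts deposited by the authors (4.50% of values not whole) were rounded. Genes were filtered with filterByExpr, scaled by TMM and tested with edgeR 4.0.16 (R 4.3.3): the 9-month groups in 1 fit of 14801 genes, WT at 3 and 18 months in another of 13487, and other WT ages in a fit of all 18 libraries (14982 genes). Adjusted p-values are Benjamini-Hochberg values over every gene of a fit. Standard errors are the fold change divided by the square root of F.

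The members and lists were chosen with earlier results of these data known. Levels per library are given for Psmb5, Psmb6, Psmb7, Psmb10, the activators, and the member of each role with the smallest p in DMD against WT and in 18 against 3 months. From each further list, the 4 smallest p-values in DMD against WT are named, except 1 gene that is not reported here. Zfand2a, Rad23b, Ubqln4 and Ube2k were named after their values were seen. Alternatives were DESeq2 1.42.0, RLE scaling, library totals, limma 3.58.1 on log2 TPM (pseudocount 1 or 0.1), no filter, a filter of 5 CPM in 3 libraries, the 50 most abundant genes left out, only the groups compared, all libraries, the replicate number as a block, and each library left out. Replicate pairs differed beyond counting error (chi-square per degree of freedom from 12.5 to 83.7). Steps were tested on simulated data. Promoters are RefSeq's (GRCr8), matched by symbol. Protein sequences were not used here.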

Additional observations from a re-analysis of the deposited data

Results flagged for a closer look

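Among the 43 tested genes, the 6 p16-null DMD libraries held 3 in which the highest or lowest library stood further from its nearest neighbour than 0.625 of the group's range, the limit for 6 samples. Chance flags about 1 in 20 such groups, which is close to what was seen. Psme2 stood at 30.1 CPM in replicate 3, against 40.5 to 46.5 in the other 5 libraries. Psmf1 stood at 20.3 CPM in the same replicate, against 17.3 to 18.3. Psmg2 stood at 13.97 CPM in replicate 6, against 7.48 to 9.45.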

How the results depend on the processing

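The direction of the calls in dystrophic muscle and the age counts rested on the scaling. In DMD against WT the higher members numbered 7 by library totals, 16 on TPM with a pseudocount of 1 and 16 with 0.1 (2 in the main test), and the lower ones 1, 0 and 0 (25). In p16-null DMD against WT the higher ones numbered 8, 22 and 22 (2), and the lower ones 2, 0 and 0 (27). At 18 against 3 months the higher ones numbered 13, 21 and 20 (4), and the lower ones 0, 0 and 0 (1), and the fit of all 18 libraries called 0 lower. At 18 against 9 months the higher ones numbered 11, 9 and 9 (0). The share of all genes called higher moved too. In these comparisons, in the order given, it was 26.4%, 27.5%, 9.31% and 3.84% in the main test. By library totals it was 52%, 54.5%, 19.3% and 16.5%, and on TPM with a pseudocount of 1 it was 54.4%, 59.6%, 22.5% and 9.87%. The share called lower was 8.38%, 8.45%, 4.83% and 1.29% by library totals, and 7.05%, 6.64%, 3.18% and 0.988% on TPM. RLE scaling, DESeq2 and leaving out the 50 most abundant genes kept the counts within 1.5 times. Leaving out 1 library gave 0 to 3 higher and 19 to 26 lower for DMD, 1 to 2 and 20 to 30 for p16-null DMD, and 1 to 2 and 0 to 1 for 18 against 3 months. In the last comparison the higher count fell in each of the 6 cases. p16-null DMD against DMD and 9 against 3 months stayed at 0 throughout.

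Replicate numbers did not pair the samples (correlations of same-numbered deviations from -0.21 to 0.11). With the replicate number as a block, 1 gene was higher and 20 lower in DMD, 1 higher and 22 lower in p16-null DMD, by edgeR. The calls then lost were those of Psme3, Psmc4, Psmd5, Psmd4, Psmd7 and Psmd13 in DMD (adjusted p = 0.079, 0.053, 0.051, 0.069, 0.064 and 0.082) and of Psmb10, Psmf1, Psmc1, Psmc3, Psmd13 and Psmg3 in p16-null DMD (0.058, 0.092, 0.067, 0.055, 0.080 and 0.054).

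For the genes described library by library and the named partners, these log2 fold changes turned, and the cause was not tested. Some of them were called higher by limma on TPM with either pseudocount (adjusted p under 0.05). In DMD muscle these were Psme2 and Nfe2l1. In p16-null DMD muscle they were Psme2, Nfe2l1, Psmc4, Psmd5 and Vcp. The other turned values did not pass. With scaling by library totals, the sign for DMD against WT turned positive for Psmc4 (0.17), Psmd5 (0.20), Psmf1 (0.078), Psmg1 (0.0073), Pomp (0.020) and Vcp (0.030). With scaling by library totals, the sign for p16-null DMD against WT turned positive for Psmc4 (0.17), Psme4 (0.020), Psmf1 (0.15), Psmg1 (0.085) and Vcp (0.11). With TPM with a pseudocount of 1, the sign for DMD against WT turned positive for Psma6 (0.016), Psma7 (0.067), Psmc4 (0.28), Psmd11 (0.011), Psmd5 (0.30), Psme2 (0.67), Psme4 (0.10), Psmf1 (0.18), Psmg1 (0.10), Nfe2l1 (0.60), Pomp (0.11), Ube2r2 (0.10) and Vcp (0.15). With TPM with a pseudocount of 1, the sign for p16-null DMD against WT turned positive for Psma6 (0.046), Psma7 (0.12), Psmb5 (0.12), Psmb7 (0.0030), Psmc4 (0.32), Psmd11 (0.051), Psmd5 (0.43), Psme2 (0.60), Psme4 (0.16), Psmf1 (0.29), Psmg1 (0.23), Nfe2l1 (0.52), Ube2r2 (0.057) and Vcp (0.26). With TPM with a pseudocount of 0.1, the sign for DMD against WT turned positive for Psma6 (0.016), Psma7 (0.068), Psmc4 (0.28), Psmd11 (0.012), Psmd5 (0.32), Psme2 (0.68), Psme4 (0.10), Psmf1 (0.18), Psmg1 (0.11), Nfe2l1 (0.61), Pomp (0.11), Ube2r2 (0.10) and Vcp (0.16). With TPM with a pseudocount of 0.1, the sign for p16-null DMD against WT turned positive for Psma6 (0.046), Psma7 (0.12), Psmb5 (0.12), Psmb7 (0.0030), Psmc4 (0.32), Psmd11 (0.052), Psmd5 (0.45), Psme2 (0.62), Psme4 (0.17), Psmf1 (0.30), Psmg1 (0.23), Nfe2l1 (0.53), Ube2r2 (0.058) and Vcp (0.26).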
